A study of Danio rerio with 14 samples.

Results

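Among the strongest H3K27ac peaks of wild-type zebrafish embryos, 1222 lay on promoter chromatin and had no H3K27ac peak in embryos without Pou5f3. A promoter peak here is a wild-type (WT) H3K27ac peak that overlaps a WT H3K4me3 peak by at least 1 bp. The WT H3K27ac peaks of chromosomes 1 to 25, without chromosome 16 from 36 to 37 Mb, were ranked by fold enrichment, and the 20000 highest of 125602 were taken. Of these, 11914 (59.6%) were promoter peaks and 8086 had no H3K4me3 and are called enhancer-class. The 1222 promoters described below, called lost promoters, overlapped no H3K27ac peak of the mutant MZspg, whereas the other 10692 promoter peaks overlapped one and are called kept. Lost promoters were thus 10.3% of the promoter peaks. Of the enhancer-class peaks, 2346 (29.0%) were lost by the same criterion, and 3568 (17.8%) of all 20000. The lost promoters were thus chosen by their WT H3K27ac, WT H3K4me3 and MZspg H3K27ac peaks, so these counts and the WT values below are a description.

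The data are chromatin immunoprecipitation (ChIP-seq) peak lists from whole embryos 4.3 hours after fertilization, the dome stage, with 7 ChIP libraries and 7 inputs. WT embryos were AB/TL. MZspg embryos carry the m793 null allele of Pou5f3, and MZsox19b embryos carry the m1434 allele of Sox19b, a TALEN deletion kept as a line from a single founder. In both mutants the factor is absent as maternal and as zygotic product, and the labels give all genotypes the AB/TL background. MZspg parents had been rescued to viability with Pou5f3 mRNA as embryos. Nuclei from many embryos and several collection days were pooled, and all genotypes were collected at the same age, although MZsox19b embryos gastrulate with a delay. For H3K27ac, material from 2 ChIP experiments went into the WT library and likewise into the MZspg library. H3K27ac in MZsox19b had 2 replicate libraries, and H3K4me3 had 1 library per genotype.

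H3K27ac is a histone acetylation found at active enhancers and promoters. H3K4me3 is a histone methylation that marks promoters, at active genes and at genes poised for activity. At zygotic genome activation the embryo starts to transcribe its own genes, and the maternal factors Pou5f3 and Sox19b bind regulatory DNA and help to open it. In the mouse, relatives of these factors, Oct4 and Sox2, act together in pluripotent cells.

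The lists give fold enrichment, the ratio of ChIP signal at a peak summit to local background, but no read counts, so the depth behind a value cannot be had from them. For H3K4me3 there were 22502 peaks in MZspg, 42572 in MZsox19b and 53634 in WT. The MZspg H3K4me3 list was thus the shortest, and the study lists the fewest reads for that ChIP library. Fold scales differed between libraries as well. The highest H3K4me3 fold was 98.8 in MZspg, 291.2 in WT and 309.8 in MZsox19b. Folds of different libraries set side by side below were not corrected for this, so they do not measure a change at a site. For H3K27ac there were 122893 peaks in MZspg, 125836 in WT, and 141202 and 173020 in MZsox19b replicates 1 and 2. With a single library for most genotypes and marks, no test between genotypes was run. Intervals are Wilson 95% intervals for shares and Newcombe 95% intervals for differences of shares. Both cover counting error only and treat promoters as independent, which neighbouring promoters are not.

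Lost promoters carried weak marks in WT. Their WT H3K27ac fold ran from 3.84 through a median of 4.50 to 38.3, with a median rank of 14515. Their WT H3K4me3 fold ran from 1.67 through a median of 3.84 to 119.9, against a median of 28.1 at all kept promoters. WT H3K4me3 was under 4-fold at 643 lost promoters (52.6%) and at 1714 of the 10692 kept promoters. It was 8-fold or more at 324 lost promoters (26.5%) and at 7917 kept promoters (74.0%). Most lost promoters were therefore weak H3K4me3 sites, and a smaller group reached 8-fold, as most kept promoters did. Of these 324, 68 reached 32-fold, against 4920 of the 7917 kept promoters of 8-fold or more.

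The lost share rose as either WT mark weakened. It was 1.87% among promoter peaks at ranks 1 to 4000 (58 of 3098) and 23.5% at ranks 16001 to 20000 (472 of 2011). Enhancer-class peaks of the same ranks were lost more often, at 18.8% (interval 16.4 to 21.5) in the first of these classes and 34.7% (32.7 to 36.9) in the last. By WT H3K4me3, the lost share was 27.3% under 4-fold (643 of 2357) and 1.36% at 32-fold or more (68 of 4988).

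**Figure D1:**
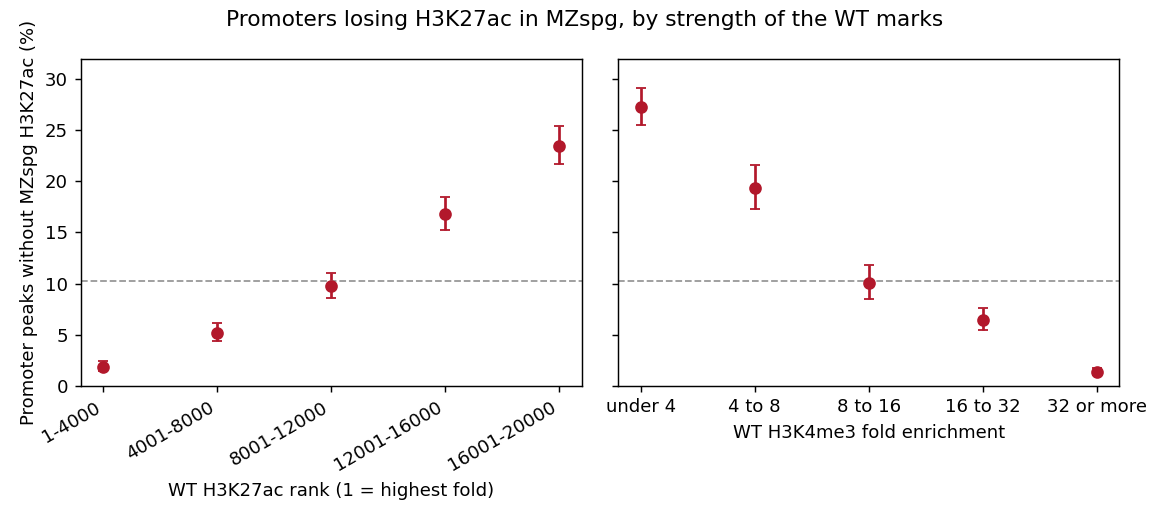
Share of promoter peaks without an MZspg H3K27ac peak (%), by WT H3K27ac rank (left) and by WT H3K4me3 fold enrichment (right). Points are shares, bars are Wilson 95% intervals, and the dashed line is the share over all promoter peaks (10.3%); the share runs from 1.87% to 23.5% with rank and from 27.3% to 1.36% with H3K4me3.

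Because weak peaks are missed more easily, each lost promoter was matched to 1 kept promoter of nearly the same WT H3K27ac rank and WT H3K4me3 fold. The pairs differed by a median of 48 ranks and 0.0146 in log2 H3K4me3 fold. The matched kept promoters had a median rank of 14475 and a median WT H3K4me3 fold of 3.86. These 2 marks were thus balanced, and the WT H3K27ac peaks were of similar width, with medians of 411 bp at lost and 454 bp at matched kept promoters.

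The question for H3K4me3 was whether promoters without H3K27ac in MZspg still carried the promoter mark in the same mutant. In the MZspg H3K4me3 library, 50 of the 1222 lost promoters had a peak, that is 4.09% (interval 3.12 to 5.35). Of the matched kept promoters, 478 had one, 39.1% (36.4 to 41.9), and of all promoter peaks 69.6%. The difference between matched kept and lost promoters was 35.0 points (32.05 to 37.96). When MZspg H3K4me3 peaks within 1000 bp counted as well, the shares were 10.9% (133) at lost and 46.2% (565) at matched kept promoters. Lost promoters thus lacked H3K4me3 in MZspg far more often than promoters of like WT strength. The rule did not use the MZspg H3K4me3 library. Without matching on H3K4me3 strength the difference would have been larger, at 54.2 points with matching on rank alone and 73.0 points against all kept promoters. When promoters covered by MZspg H3K27ac over less than 50% of their width also counted as lost, 14.3% of lost promoters had MZspg H3K4me3. The MZspg H3K4me3 list was the shortest. With the WT and MZsox19b H3K4me3 lists cut by fold to its 22502 peaks, the difference was 54.4 points. That cut left the MZspg list as it was and kept only 706 lost promoters, those whose WT H3K4me3 stayed in the shortened list. It therefore cannot show what a longer MZspg list would have held.

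The difference was widest where WT H3K4me3 was strong and easily seen. Under 4-fold in WT, 0.933% of lost promoters (6 of 643) and 13.0% of matched kept promoters (83 of 640) had an MZspg H3K4me3 peak. At 4 to 8-fold the shares were 1.57% and 38.0%, and at 8 to 16-fold they were 6.25% and 83.1%. At 16 to 32-fold they were 15.6% and 95.3%, and at 32-fold or more 17.6% (12 of 68) and 98.6% (68 of 69). Over all promoters of 8-fold or more, 40 of 324 lost promoters, 12.3% (9.20 to 16.4), and 298 of 327 matched kept promoters, 91.1% (87.6 to 93.8), had the peak. Of the 50 lost promoters with MZspg H3K4me3, 40 were in this stronger group.

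The lost promoters were chosen for lacking H3K27ac in MZspg, and no set chosen by loss in MZsox19b was examined. The MZsox19b H3K4me3 list was also longer, with 42572 peaks against 22502 in MZspg. What the choice and the list length added to a contrast between the mutants was not tested. With these limits, the lost promoters had H3K4me3 peaks more often in MZsox19b than in MZspg. A peak was present at 619 lost promoters, 50.7% (47.9 to 53.5), and at 759 matched kept promoters, 62.1% (59.4 to 64.8), against 84.7% of all promoter peaks. The difference was 11.5 points (7.53 to 15.3). It was 6.13 points with peaks ranked by −log10 q and 38.0 points without matching. With H3K4me3 lists of equal size, which left 706 lost promoters, it was 19.3 points. At WT H3K4me3 of 8-fold or more, 295 of 324 lost promoters (91.0%, 87.4 to 93.7) and 318 of 327 matched kept promoters (97.2%, 94.9 to 98.5) had it. Their MZsox19b H3K4me3 fold had a median of 29.6 and reached 195.9. Of the 324, 284 had no MZspg H3K4me3 peak, and at least 235 of these had H3K4me3 in MZsox19b. Strong promoters without either mark in MZspg were thus mostly marked by H3K4me3 in MZsox19b.

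**Figure D2:**
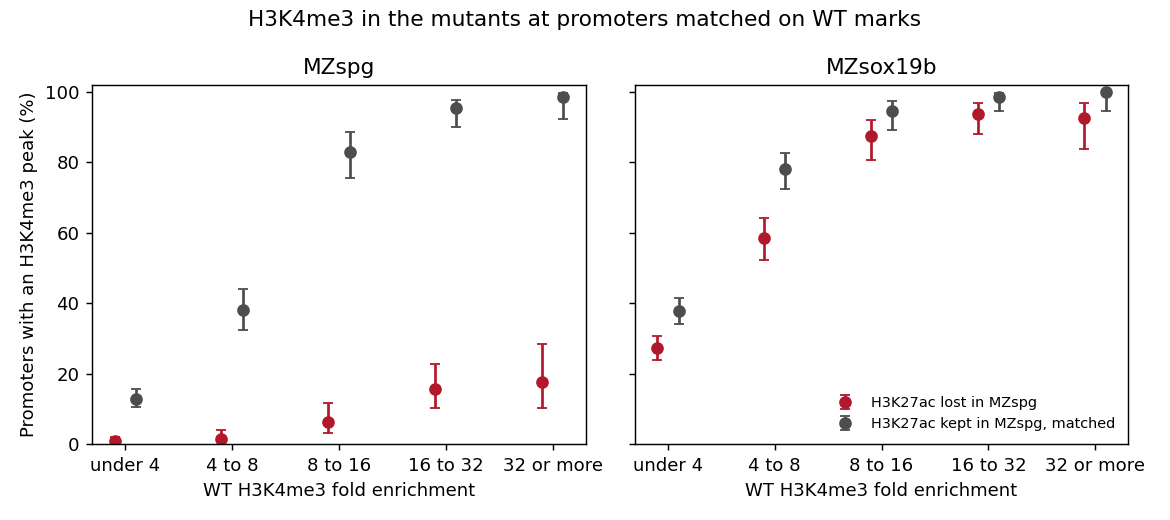
Share of promoters with an H3K4me3 peak (%) in MZspg (left) and MZsox19b (right), by WT H3K4me3 fold enrichment, for lost promoters (red) and matched kept promoters (grey). Bars are Wilson 95% intervals. In MZspg the lost promoters stay at or under 17.6% in every class while matched kept promoters reach 98.6%, and in MZsox19b both sets rise above 87% from 8-fold on.

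H3K27ac in MZsox19b was measured in replicate, and the rule did not use it. In replicate 1, 921 lost promoters had an H3K27ac peak, 75.4% (72.9 to 77.7), against 86.2% of matched kept promoters and 93.5% of all promoter peaks. In replicate 2 the peak was present at 1023 lost promoters, 83.7% (81.5 to 85.7), against 90.2% of matched kept promoters and 95.4% of all promoter peaks. The mean was 79.5% ± 5.90 (SD, n = 2) at lost promoters and 88.2% ± 2.84 (SD, n = 2) at matched kept promoters. The difference within a replicate was 8.63 ± 3.07 points (SD, n = 2) and had the same direction in both. Most promoters that lost H3K27ac without Pou5f3 were acetylated without Sox19b, yet somewhat fewer than promoters of like WT strength. By the rule, kept promoters had H3K27ac peaks in WT and MZspg, whereas lost promoters needed one in WT alone. A WT H3K27ac peak near the rank limit could thus enter the lost set more easily, also with matching. The lowest WT H3K27ac −log10 q at lost promoters was 11.0, against 1.31 over the WT list. What this choice added to the differences in the mutant lists was not tested. With only 2 values of the difference in MZsox19b H3K27ac, no test was run. The MZsox19b H3K27ac lists cover more of the genome than the MZspg list, and when each was reduced to the same covered length by fold, the share at lost promoters was 59.0% and the difference 15.2 points.

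Both replicates had an H3K27ac peak at 902 lost promoters (73.8%, against 92.9% of all promoter peaks), exactly 1 replicate at 140 (11.5%) and neither at 180 (14.7%, against 3.99%). The replicates gave the same call at 1082 lost promoters, 88.5% (86.6 to 90.2). Fold enrichment at lost promoters, with absent peaks as 0, had a median of 4.07 in replicate 1 and 4.01 in replicate 2, against 6.18 and 5.69 at matched kept promoters. Within the MZsox19b lists themselves, 42.7% of lost promoters in replicate 1 and 41.7% in replicate 2 overlapped one of the 20000 highest peaks. The corresponding shares of matched kept promoters were 56.1% and 57.0%. The lost promoters thus ranked lower in MZsox19b as well, in each replicate.

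At the 324 lost promoters with WT H3K4me3 of 8-fold or more, H3K27ac was present in MZsox19b at 86.4% in replicate 1 and 87.3% in replicate 2. At the 327 matched kept promoters it was present at 97.6% and 96.9%. Lost enhancer-class peaks matched to the lost promoters on WT rank had MZsox19b H3K27ac at 70.5% (67.8 to 72.9) in replicate 1 and 74.96% (72.5 to 77.3) in replicate 2. Lost promoters lay above these enhancer-class peaks in both replicates, with intervals that barely overlapped in replicate 1 and did not overlap in replicate 2. Chromosome 4 held 374 of the 1222 lost promoters but 259 of the 2346 lost enhancer-class peaks. On the other chromosomes, lost promoters had MZsox19b H3K27ac at 70.5% and 79.4% in replicates 1 and 2. The enhancer-class shares were not split by chromosome, so what chromosome 4 added to this contrast was not tested.

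**Figure D3:**
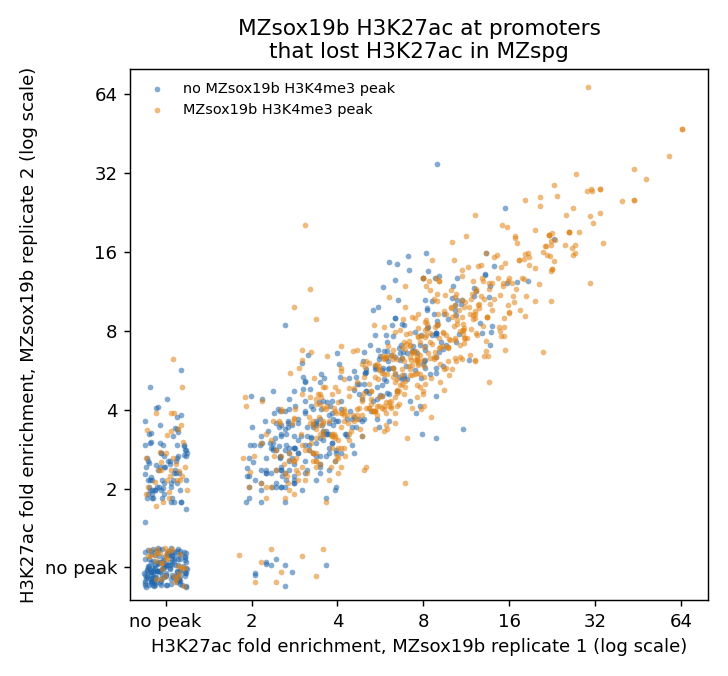
H3K27ac fold enrichment at the 1222 lost promoters in MZsox19b replicate 1 (x axis) and replicate 2 (y axis), both on a log scale, with promoters without a peak spread around the mark "no peak". Colour gives the presence of MZsox19b H3K4me3. Peaks were present in both replicates at 902 promoters and in neither at 180.

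Over all 3 MZsox19b lists, 543 lost promoters, 44.4% (41.7 to 47.2), had H3K27ac in both replicates and H3K4me3, against 720 matched kept promoters, 58.9% (56.1 to 61.6). Of the 543, 505 had no MZspg H3K4me3, which is 41.3% (38.6 to 44.1) of lost promoters against 25.9% (23.5 to 28.4) of matched kept promoters. Among stronger promoters of 8-fold or more, this pattern of all marks in MZsox19b and no H3K4me3 in MZspg held at 235 of 324 lost promoters, 72.5% (67.4 to 77.1). It held at 24 of 327 matched kept promoters, 7.34% (4.98 to 10.7). At the other end, 144 lost promoters, 11.8% (10.1 to 13.7), had no peak in any of the 4 mutant lists that the rule did not use, compared with 61 matched kept promoters, 4.99% (3.91 to 6.36). H3K4me3 and H3K27ac went together in MZsox19b. H3K4me3 was present at 60.2% (57.0 to 63.3) of lost promoters with H3K27ac in both replicates and at 17.8% (12.9 to 24.0) of those with it in neither.

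Most lost promoters had a single WT H3K27ac peak on their WT H3K4me3 peak (1110 of 1222), and the rule used MZspg H3K27ac, so what follows is a description. At 1184 lost promoters, 96.9% (95.8 to 97.7), no MZspg H3K27ac peak overlapped the WT H3K4me3 peak or any other WT H3K27ac peak on it. At the remaining 38, part of the promoter was still acetylated. Of the 112 lost promoters with a further WT H3K27ac peak on the same H3K4me3, 79 (70.5%) had lost H3K27ac throughout. With promoters covered over less than 50% counted as lost, the share was 59.5%, since such promoters keep part of their H3K27ac by construction. The 1222 lost promoters lay on 1204 distinct H3K4me3 peaks, of which 16 held 2 lost promoters and 1 held 3. The nearest MZspg H3K27ac peak was 1 bp away at the closest, 3479 bp at the median and 130982 bp at the farthest. It lay within 1000 bp at 289 lost promoters (23.6%) and beyond 10000 bp at 314 (25.7%). MZspg H3K4me3 was present at 5.54% (3.44 to 8.80) of the former 289 and at 3.64% (2.62 to 5.05) of the 933 with no MZspg H3K27ac within 1000 bp. The intervals of these shares overlap, and a difference between promoters near to and away from remaining H3K27ac was not tested. The summits of the WT marks lay close together, at a median of 32 bp in lost and 33 bp in matched kept promoters.

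The highest-ranking lost promoters show these patterns one by one. Gene names cannot be given here, because no gene annotation of the danRer11 build was used. Of the 15 lost promoters highest in WT H3K27ac, 15 had H3K27ac in both MZsox19b replicates, 12 had MZsox19b H3K4me3 and 2 had MZspg H3K4me3.

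**Figure D4:**
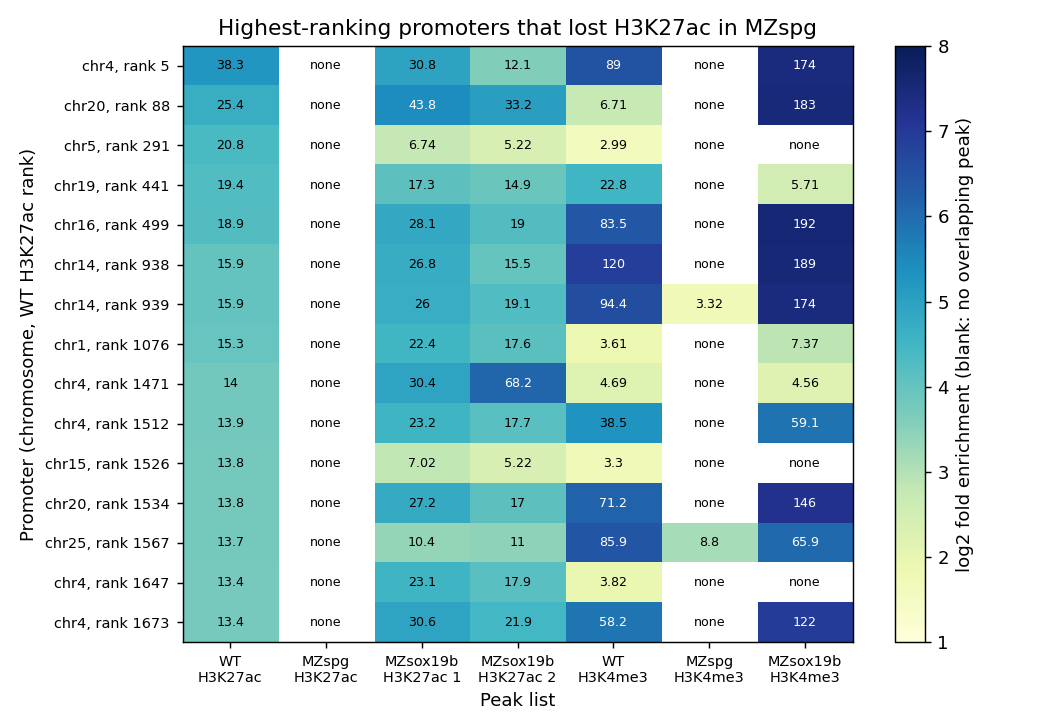
Fold enrichment of the 15 highest-ranking lost promoters (rows, by chromosome and WT H3K27ac rank) in each peak list (columns), with colour as log2 fold and the linear fold printed. MZspg H3K27ac is empty by the rule; MZspg H3K4me3 holds 2 values, 3.32 and 8.80, and each MZsox19b H3K27ac list holds 15.

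Rank 5 was chr4:41297525-41297791, a peak of 267 bp with WT H3K27ac at 38.3-fold and WT H3K4me3 at 89.0-fold. Its WT H3K4me3 peak had nearly the same edges, chr4:41297517-41297795. That peak was 279 bp wide, against a median of 1048 bp at all kept promoters. In MZspg neither mark had a peak there, and the nearest H3K27ac peak was 17058 bp away. In MZsox19b, H3K27ac was at 30.8-fold and 12.1-fold in replicates 1 and 2 and H3K4me3 at 173.9-fold. At this locus both marks were strong in WT and MZsox19b and without a peak in MZspg.

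On chromosome 14, chr14:52407879-52408887 had the highest WT H3K4me3 of all lost promoters, at 119.9-fold, with WT H3K27ac at 15.9-fold. Neither MZspg list had a peak, whereas MZsox19b H3K27ac was at 26.8-fold and 15.5-fold and H3K4me3 at 188.9-fold. A second promoter on the same chromosome, chr14:52480814-52482036, also had WT H3K27ac at 15.9-fold, with WT H3K4me3 at 94.4-fold. It retained a weak MZspg H3K4me3 peak at 3.32-fold and had MZsox19b H3K4me3 at 174.1-fold. Its neighbour chr14:52479693-52480671 shared its H3K4me3 peak and was lost as well. These sites, with strong H3K4me3 in WT, thus had no H3K4me3 peak or a weak one in MZspg.

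The same contrast appeared at chr16:38628138-38629231, with WT H3K27ac at 18.9-fold and WT H3K4me3 at 83.5-fold. MZspg had no H3K4me3 peak there, and MZsox19b H3K4me3 was at 192.2-fold. At chr19:20146728-20147741 (WT H3K27ac 19.4-fold, WT H3K4me3 22.8-fold), H3K27ac in MZsox19b was at 17.3-fold and 14.9-fold but H3K4me3 only at 5.71-fold. This site is one where H3K27ac rather than H3K4me3 was strong in MZsox19b.

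Other high-ranking sites were broad H3K27ac domains with little H3K4me3. The domain chr5:42792251-42803750 spanned 11500 bp with WT H3K27ac at 20.8-fold and overlapped a WT H3K4me3 peak of 2.99-fold. It had no H3K4me3 peak in either mutant, and MZsox19b H3K27ac was at 6.74-fold and 5.22-fold. The domain chr20:26421079-26427210 had WT H3K27ac at 25.4-fold and WT H3K4me3 at 6.71-fold, and MZsox19b H3K4me3 at 182.6-fold. Both domains had WT H3K4me3 peaks much narrower than their H3K27ac, at 246 bp and 977 bp.

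The remaining sites among the highest 15 fell into the same kinds. At chr20:17858096-17858957, with WT H3K4me3 at 71.2-fold, MZspg had no H3K4me3 peak and MZsox19b had 146.3-fold. At chr4:56622744-56624320, with WT H3K4me3 at 58.2-fold, MZspg again had none and MZsox19b had 122.3-fold. At chr4:3110500-3114474, WT H3K4me3 was 38.5-fold and MZsox19b H3K4me3 59.1-fold, with none in MZspg. These 3 were strong promoters without either mark in MZspg. An exception was chr25:21065540-21066306, where MZspg kept H3K4me3 at 8.80-fold against 85.9-fold in WT and 65.9-fold in MZsox19b. For scale, all kept promoters of 32-fold or more in WT had a median H3K4me3 of 31.0-fold in MZspg and 107.2-fold in MZsox19b. Weakly methylated sites were chr1:10899502-10903078 with WT H3K4me3 at 3.61-fold, chr15:45850916-45853794 with 3.30-fold and chr4:60193091-60193993 with 3.82-fold. The first had MZsox19b H3K4me3 at 7.37-fold, and the others had none, although their MZsox19b H3K27ac was at 7.02-fold and 23.1-fold in replicate 1.

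Lost promoters that kept MZspg H3K4me3 were few. Their median was 3.71-fold over the 50, against 6.03-fold over the 478 matched kept promoters with such a peak. The highest of the 50 was chr20:42376751-42377976 at 30.4-fold, with WT H3K4me3 at 66.6-fold. It lay 1 bp from an MZspg H3K27ac peak, so it is also the lost promoter nearest to the edge of the overlap rule. The next was chr23:24394117-24394733 at 11.97-fold, 17 bp from such a peak. The third, chr9:144934-145357, had 10.8-fold and lay 7655 bp from one. The strongest remaining H3K4me3 was therefore partly at sites that only just fell on the lost side.

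The lost promoters highest in MZsox19b H3K27ac were on chromosome 4. At chr4:51841457-51842090, MZsox19b H3K27ac was at 64.5-fold and 47.1-fold in replicates 1 and 2, with WT H3K27ac at 9.05-fold. At chr4:52738613-52739119 the values were 30.4-fold and 68.2-fold, with WT H3K27ac at 14.0-fold. The replicates ordered these sites differently, so their order is within the spread.

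Just inside the rank limit, the last lost promoters were at ranks 19962, 19981 and 19997, with WT H3K27ac between 3.84 and 3.86-fold. Just outside it, ranks 20007, 20022 and 20036 also overlapped H3K4me3 and no MZspg H3K27ac peak, each at 3.84-fold. On the other side of the overlap rule, the kept promoters with the shortest overlap shared 6, 20 and 24 bp with an MZspg H3K27ac peak. Of all kept promoters, 767 (7.17%) were covered by MZspg H3K27ac over less than 50% of their width.

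Chromosome 4 held 374 of the 1222 lost promoters (30.6%). Of its 1625 promoter peaks, 23.0% (21.0 to 25.1) were lost, against 8.24% (848 of 10289) on the other chromosomes, which ranged from 4.46% on chromosome 25 to 11.1% on chromosome 20. Its enhancer-class peaks were lost at 31.3%, inside the range of the other chromosomes. Chromosomes are not replicates, and no test was run.

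**Figure D5:**
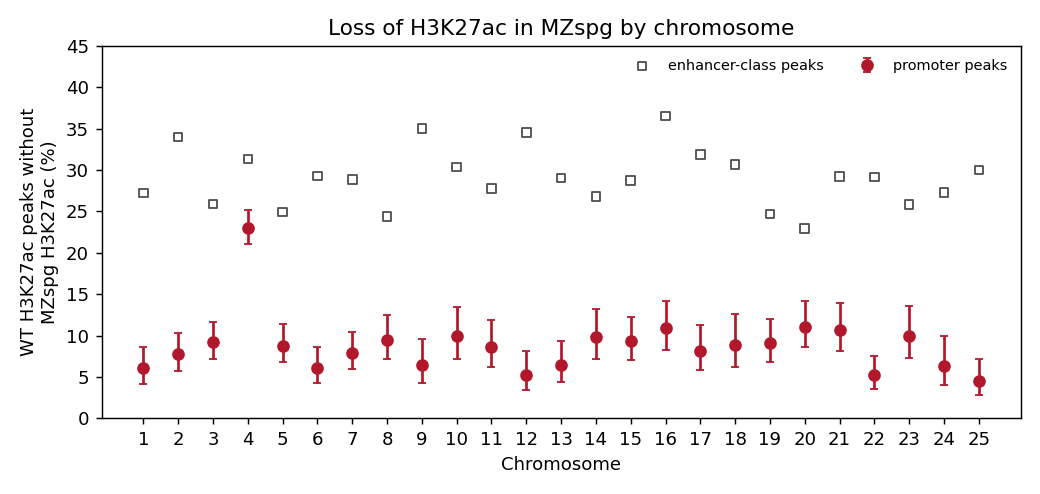
Share of WT H3K27ac peaks without an MZspg H3K27ac peak (%) by chromosome, for promoter peaks (red, with Wilson 95% intervals) and enhancer-class peaks (squares). For promoter peaks chromosome 4 stands at 23.0% and every other chromosome at 11.1% or lower.

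Along chromosome 4 the lost share was 4.20% from 0 to 10 Mb, 5.48% from 10 to 20 Mb and 5.56% from 20 to 30 Mb. From 30 Mb on it was 33.5%, 25.5%, 32.6%, 22.1% and 15.4% in successive windows of 10 Mb. The change fell at about 30 Mb, a boundary chosen after the counts were seen, and 359 of the 1325 promoter peaks beyond it were lost (27.1%). Enhancer-class peaks beyond it were lost at 34.2% (30.5 to 38.1), against 23.4% (18.3 to 29.4) before it and 28.8% (27.7 to 29.8) on other chromosomes. WT H3K4me3 reached 8-fold less often at lost promoters beyond it, at 71 of the 359 (19.8%), against 248 of the 848 lost promoters on other chromosomes (29.2%). Promoter peaks of other chromosomes weighted to the same classes of both WT marks were lost at 15.2%, a share between that beyond 30 Mb and that of the other chromosomes as they are.

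In MZsox19b the lost promoters beyond 30 Mb were acetylated more often than those elsewhere. H3K27ac was present at 87.2% (83.3 to 90.3) in replicate 1 and 94.2% (91.2 to 96.1) in replicate 2. On the other chromosomes the shares were 70.5% (67.4 to 73.5) and 79.4% (76.5 to 82.0). Matched kept promoters showed the same direction, with 95.5% and 97.5% beyond 30 Mb and 84.3% and 89.0% on other chromosomes, so the rise was not particular to lost promoters. MZsox19b H3K4me3 was present at 44.0% (39.0 to 49.2) of lost promoters beyond 30 Mb and at 53.7% (50.3 to 57.0) on other chromosomes. Of matched kept promoters it was present at 35.9% (29.5 to 42.7) of the 198 beyond 30 Mb and at 67.0% (64.02 to 69.85) of the 994 on other chromosomes. Matching was over all chromosomes, so the 198 were not chosen as partners of the 359 lost promoters beyond 30 Mb. Within that region the comparison is therefore not a matched one. There the lost share lay above that of the 198, with overlapping intervals, the reverse of the direction over the whole set. MZspg H3K4me3 was rare in both places, at 3.06% and 4.36%. The MZspg contrast beyond 30 Mb was also smaller when read against these unpaired promoters. Only 14.6% of the 198 had MZspg H3K4me3, against 43.6% of the 994 on other chromosomes. When the 20000 peaks were taken without chromosome 4, the difference in MZspg H3K4me3 was 35.4 points, so it did not rest on that chromosome.

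Lost promoters also lay in runs on chromosome 4. Joining lost promoters no more than 10000 bp apart gave 1064 runs, of which 960 held a single promoter. Of the 12 runs with 4 or more, 12 were on chromosome 4, which held 1625 of all 11914 promoter peaks. Runs of kept promoters or of all promoter peaks were not counted, so the runs cannot be called particular to lost promoters. The run with the most, chr4:42567580-42585978, held 10 lost promoters and no kept one. Their WT H3K4me3 was between 2.44 and 4.03-fold, none of the 10 had H3K4me3 in MZspg or MZsox19b, and all 10 had H3K27ac in both MZsox19b replicates. A run of 6 at chr4:30116221-30132546 likewise had no MZspg H3K4me3, but 4 of its 6 had MZsox19b H3K4me3. Promoters within a run lie close together and are not independent of each other.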

How the data were processed

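The authors mapped paired-end reads to danRer11 with Bowtie2 (version 2.3.2.2 in the submitters' processing notes) and called peaks per library with MACS2, with pooled inputs as background. In the deposited lists, fold enrichment is a ratio of ChIP to local background, −log10 p and −log10 q give the significance of a peak, the score is 10 times −log10 q, and the last column is the summit offset. Groups came from sample titles. WT H3K27ac peaks were ranked by fold, ties by −log10 q and then by position in the list. Overlap meant at least 1 bp, and where several peaks overlapped the highest fold was used. Matching was 1 to 1 without replacement, to the nearest promoter in rank and log2 H3K4me3 fold, each scaled by its SD. Python 3.11.15, pandas 2.3.3 and scipy 1.17.1 were used. Overlaps were checked with bedtools 2.31.1 on 1 chromosome of the deposited lists, and the matching was checked on simulated data.

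The lost promoters, classes and comparisons were chosen with earlier results of these data known. The regions named were the 15 highest by WT H3K27ac, the 5 highest by each of WT H3K4me3, MZspg H3K4me3 and mean MZsox19b H3K27ac, and the 3 on either side of the rank limit, from which those above are described; the runs on chromosome 4 and the shortest overlaps were added after their values were seen. Annotated start sites and sequence motifs were not analysed here, since no genome or annotation of this build was used. Alternatives covered the rank limit, ranking, overlap, thresholds, matching, list sizes and each MZsox19b replicate.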

Additional observations from a re-analysis of the deposited data

Results flagged for a closer look

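Promoter peaks outside the ranked set were examined at the same WT H3K27ac fold limit. On chromosome 16 from 36 to 37 Mb, which was left out, 79 of 90 promoter peaks (87.8%, 79.4 to 93.0) had no MZspg H3K27ac peak. None of the 79 had MZspg H3K4me3, and MZsox19b H3K27ac was present at 10.1% of them in replicate 1 and 7.59% in replicate 2. This stretch therefore lacked the marks in both mutants, unlike the promoters described above. On sequences outside chromosomes 1 to 25, 265 of 1858 promoter peaks (14.3%, 12.7 to 15.9) had no MZspg H3K27ac peak, and 23 of these (8.68%) had MZspg H3K4me3. MZsox19b H3K27ac was present at 80.8% of the 265 in replicate 1 and 85.7% in replicate 2, and MZsox19b H3K4me3 at 62.6%.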

How the results depend on the processing

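Kept promoters had the marks more often than lost promoters in every alternative run. In some alternatives the kept promoters were unmatched or weighted by class. The unmatched setting gave the highest differences for both MZsox19b marks. Each alternative still chose the lost and kept promoters by MZspg H3K27ac, so none could test what that choice added. The difference ranged from 32.9 to 79.0 points for MZspg H3K4me3 (16 alternatives), from 6.13 to 38.0 for MZsox19b H3K4me3 (16) and from 6.03 to 16.6 for MZsox19b H3K27ac (18). Values that moved beyond their interval, or beyond 1 SD of the replicates for MZsox19b H3K27ac, follow, and the cause was not tested unless the setting itself gives it. With the 10000 highest peaks there were 294 lost promoters, of which 62.6% had MZsox19b H3K4me3 and 85.9% MZsox19b H3K27ac, and the H3K4me3 differences were 49.7 points in MZspg and 17.0 in MZsox19b. With the 5000 highest there were 81 lost promoters, with shares of 71.6% and 92.0%, an MZspg H3K4me3 difference of 54.3 points and whole-promoter loss at 95.1%. Ranking by −log10 q gave 5.70% with MZspg H3K4me3, 72.1% with MZsox19b H3K27ac, and differences of 6.13 points for MZsox19b H3K4me3 and 13.0 for MZsox19b H3K27ac. Requiring no MZspg H3K27ac within 1000 bp gave whole-promoter loss at 99.9%, which the setting itself produces. Counting coverage under 50% as lost gave 1989 lost promoters, 14.3% with MZspg H3K4me3, 57.8% with MZsox19b H3K4me3 and whole-promoter loss at 59.5%. Using only MZspg H3K27ac peaks with −log10 q of 5 or more gave 7.41% with MZspg H3K4me3. Restricting to WT H3K4me3 of 8-fold or more left 324, with shares of 12.3%, 91.0% and 86.9% for MZspg H3K4me3, MZsox19b H3K4me3 and MZsox19b H3K27ac, H3K4me3 differences of 79.0 and 7.41 points, and whole-promoter loss at 90.1%. Keeping the stretch of chromosome 16 gave MZsox19b differences of 15.6 points for H3K4me3 and 13.0 for H3K27ac. Matching on rank alone gave differences of 54.2, 24.9 and 12.03 points for MZspg H3K4me3, MZsox19b H3K4me3 and MZsox19b H3K27ac, and all kept promoters gave 73.0, 38.0 and 16.6. H3K4me3 sought anywhere in the WT H3K4me3 peak was present in MZspg at 6.46%. Equal H3K4me3 lists left 706 lost promoters and gave 6.37% in MZspg and differences of 54.4 and 19.3 points. MZsox19b H3K27ac lists reduced to the covered length of MZspg gave 59.0% and 15.2 points. Unlike the values above, those with either MZsox19b H3K27ac replicate left out stayed within 1 SD. Their shares ran from 75.4% to 83.7% and their differences from 6.46 to 10.8 points. With 2 replicates each always lies within 1 SD of the mean, so this could not have come out otherwise.

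Some alternatives were added after seeing the data. Without chromosome 4, MZsox19b H3K27ac was at 71.8% and the MZsox19b differences were 15.4 points for H3K4me3 and 11.8 for H3K27ac. With 1 WT H3K27ac peak per WT H3K4me3 peak, whole-promoter loss was at 98.4%. No paired analysis was possible because only MZsox19b H3K27ac had replicates. Settings for annotated starts and sequence motifs were not run, since no genome or annotation of the build was used. The depth behind each list cannot be corrected for from peaks, and an absent peak means only that none passed the threshold of that list.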
